A study of Mus musculus with 24 samples.

Results

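The peaks of TCF7L2 in developing mouse cortex were compared at 2 embryonic (E) stages, E15.5 and E18.5. The members were the peaks on chromosomes 1 to 19 of the 2 lists that chromatin immunoprecipitation sequencing (ChIP-seq) with an antibody against TCF7L2 gave, which were 32579 peaks at E15.5 and 52595 at E18.5. These 85174 peaks were part of the 315145 peaks in the 6 lists of the series, which also covers ARID1B and FOXP1 at both stages. A peak that overlapped a peak of the other stage by at least 1 base was assigned to the class of both stages, and any other peak was assigned to E15.5 only or E18.5 only. The peaks were then compared by their position relative to genes, by the genes they lay at, and by their rank within each list. The rank used no value of the other stage.

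The tissue was cortex dissected from wild-type mice, with no treatment or transgene in either group. Each stage had 2 biological replicates of ChIP and 2 of input chromatin, 8 libraries in all. The sample labels give the target as TCF4, an older alias of TCF7L2 that is also the gene symbol of an unrelated basic helix-loop-helix factor, whereas the methods name an antibody against TCF7L2, and that name is used here. The 1 list per stage analysed here was called on merged replicates, so no difference between the stages was set against the spread between replicates, and the 95% intervals given below cover counting error only. Cortex is a mixture of progenitors, neurons, glia, and vessel cells, so a change in the share of a cell type and a change in binding per cell cannot be told apart.

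TCF7L2 is a high mobility group box factor at the end of the canonical Wnt pathway. Wnt ligands bind Frizzled and LRP receptors and halt the destruction complex of Axin, APC, and GSK3, so that β-catenin accumulates and joins TCF/LEF factors on DNA as a coactivator. Without β-catenin, these factors recruit corepressors of the TLE/Groucho family. In the forebrain, the pathway is known for its role in progenitor proliferation and regional patterning, and vessel cells of the brain use it to form the blood-brain barrier.

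Some sequences under the peaks are shown first, since the classes are read against the core site of TCF/LEF factors, ATCAAAG, or CTTTGAT on the other strand. All are from the plus strand of GRCm38 (mm10), and none lies in an annotated untranslated region. In the first 4, which are 100 bp windows around summits, capitals mark the core. They were chosen because they hold it, as the strongest such distal peaks of their class in each list, so its presence in them is not a result. The peak at both stages lay in an intron of the long non-coding gene 2610035D17Rik on chromosome 11, with fold enrichments of 15.3 (E15.5) and 13.7 (E18.5), and its 2 windows are shifted by the distance between the summits. The E15.5-only peak lay in an intron of Slco1c1, which encodes a thyroid hormone transporter of brain vessels (4.00), and the E18.5-only peak in an intron of the long non-coding gene Gm28271 (4.49). The strongest windows of the stage-only classes were thus much less enriched than the shared one.
Both stages, E15.5 summit, chr11:113192184-113192283: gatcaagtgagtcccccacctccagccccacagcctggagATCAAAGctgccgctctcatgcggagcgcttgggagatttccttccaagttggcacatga
Both stages, E18.5 summit, chr11:113192193-113192292: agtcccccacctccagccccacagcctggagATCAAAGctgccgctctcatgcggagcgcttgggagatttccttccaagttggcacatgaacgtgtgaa
E15.5 only, chr6:141568606-141568705: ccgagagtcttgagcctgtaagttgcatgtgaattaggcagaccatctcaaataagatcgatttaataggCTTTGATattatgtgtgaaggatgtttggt
E18.5 only, chr5:91764765-91764864: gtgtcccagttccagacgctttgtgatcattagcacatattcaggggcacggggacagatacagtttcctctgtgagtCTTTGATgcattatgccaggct

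The next 3 windows are 200 bp around the E18.5 summits of the strongest distal peaks near Axin2, Lef1, and Tle2, a feedback inhibitor, a TCF/LEF factor, and a Groucho corepressor of the pathway. All 3 peaks were present at both stages, and they were chosen after their values were seen. Here capitals mark the core or its variant TTCAAAG on either strand. The Lef1 window held the variant and the Tle2 window held the core near its end. The Axin2 window held neither spelling, although it was the strongest distal peak of both lists.
Axin2, chr11:109011749-109011948: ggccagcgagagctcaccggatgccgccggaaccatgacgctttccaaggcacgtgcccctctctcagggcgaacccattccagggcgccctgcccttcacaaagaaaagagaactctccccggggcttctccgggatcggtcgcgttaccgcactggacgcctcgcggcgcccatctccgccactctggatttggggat
Lef1, chr3:131105983-131106182: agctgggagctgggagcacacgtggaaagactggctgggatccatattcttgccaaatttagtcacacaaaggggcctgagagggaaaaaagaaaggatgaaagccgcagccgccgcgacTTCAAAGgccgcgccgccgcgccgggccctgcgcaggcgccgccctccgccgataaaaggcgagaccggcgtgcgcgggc
Tle2, chr10:81570849-81571048: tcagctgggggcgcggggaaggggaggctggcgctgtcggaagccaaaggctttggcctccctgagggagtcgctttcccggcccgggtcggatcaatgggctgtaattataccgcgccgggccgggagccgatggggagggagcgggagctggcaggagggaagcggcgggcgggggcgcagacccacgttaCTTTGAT

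Nearly all E15.5 peaks were also peaks at E18.5, whereas a large part of the E18.5 list had no counterpart. Of the E15.5 peaks, 30944 (94.98%, 95% Wilson interval 94.7% to 95.2%) overlapped an E18.5 peak and 1635 (5.02%, 4.79% to 5.26%) did not. Of the E18.5 peaks, 29628 (56.3%, 55.9% to 56.8%) overlapped an E15.5 peak and 22967 (43.7%, 43.2% to 44.1%) did not. With the E18.5 list cut to its 32579 strongest peaks, the length of the E15.5 list, the shares without a counterpart were 14.2% at E15.5 and 20.5% at E18.5, so the asymmetry was smaller at equal length and kept its direction. The overlaps formed 28207 shared loci, of which 24869 joined a single peak of each list, 1750 joined 2 E15.5 peaks to 1 of E18.5, and 964 the reverse. The E15.5 list covered 21.5 Mb and the E18.5 list 33.7 Mb, and the E18.5-only peaks made up 7.39 Mb of the latter.

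The lists were not called at the same sensitivity, which bears on every count of stage-only peaks. From the steps of the fold enrichments, a background of 6.43 reads was recovered for the E15.5 list and 8.14 for the E18.5 list. Merged ChIP reads numbered 77.5 and 76.1 M, but the smaller of ChIP and input, to which the caller scales, held 60.1 M reads for E15.5 and 76.1 M for E18.5. The lowest called peak had a fold enrichment of 2.64 (E15.5) or 2.41 (E18.5), and 2075 E18.5-only peaks (9.03%) lay under the E15.5 minimum, so that a peak of that height was not detectable in the E15.5 list. The part of depth in the other E18.5-only peaks was not tested.

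The classes differed in strength, and the stage-only peaks were weak at both stages. The fold enrichment of a peak is the ratio of reads at its summit to the background. At E15.5, its median was 4.41 in peaks of both stages and 3.27 in E15.5-only peaks, whose highest value was 6.08. At E18.5, it was 4.71 in peaks of both stages and 3.07 in E18.5-only peaks, whose highest value was 5.91. In contrast, the highest shared values were 39.7 and 42.0. The stage-only peaks were also narrower, with median widths of 244 bp (E15.5 only) and 278 bp (E18.5 only) against 547 and 752 bp in the shared peaks of the same lists. Only 48 E15.5-only peaks (2.94%) and 679 E18.5-only peaks (2.96%) reached a fold enrichment of 4, near-identical shares of classes that differed widely in size.

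Ranked by −log10 p within each list, the overlap was complete at the top and fell toward the weak end of each list. The strongest 5000 peaks of each list were all shared, and so were 9998 of the strongest 10000 (99.98%, 99.93% to 99.99%) at each stage. Among the strongest 20000, 99.5% of the E15.5 peaks and 96.7% of the E18.5 peaks were shared. The first stage-only peak stood at rank 7778 of the E15.5 list and at rank 9344 of the E18.5 list. In the weakest decile, 79.7% (78.3% to 81.0%) of the E15.5 peaks were still shared, against 11.4% (10.6% to 12.3%) of the E18.5 peaks. The weakest decile of the longer E18.5 list lies wholly beyond the rank at which the E15.5 list ends, so the deciles of the lists are not comparable in rank.

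**Figure D1:**
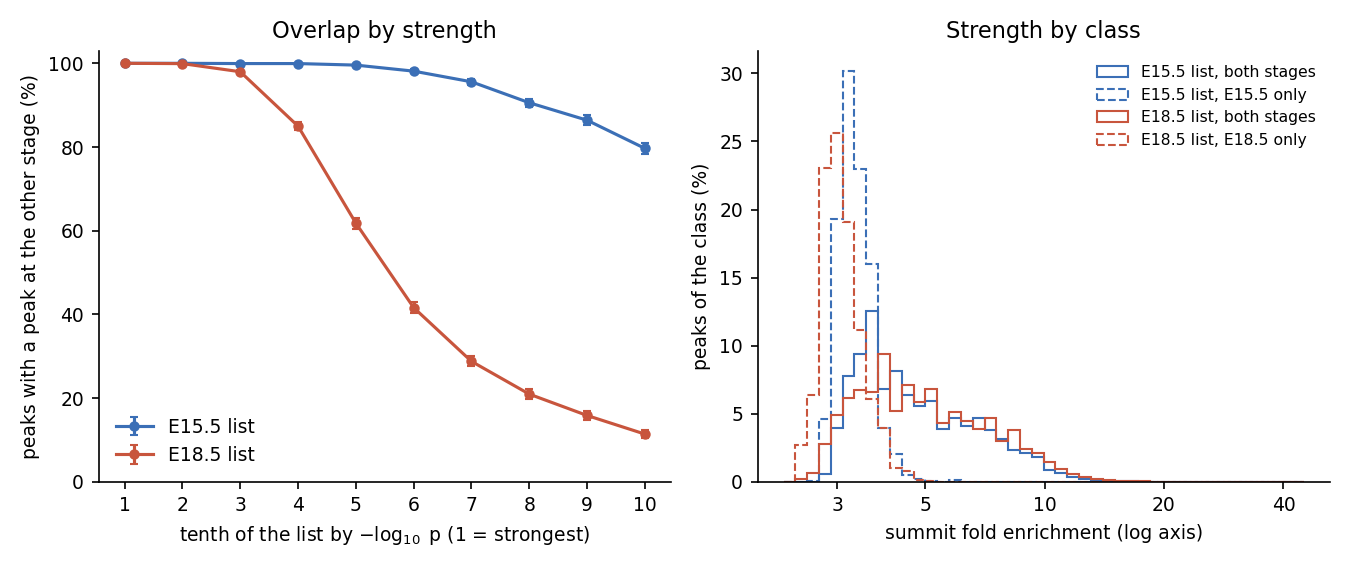
Left, the percent of peaks with a peak at the other stage in each decile of the E15.5 (blue) and E18.5 (red) list, ordered from the strongest to the weakest −log10 p, with 95% Wilson intervals as bars; it ends at 79.7% and 11.4%. Right, the percent of peaks of each class by summit fold enrichment (log axis), with solid lines for peaks of both stages and dashed lines for stage-only peaks, with medians of 3.27 (E15.5) and 3.07 (E18.5).

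A part of the stage-only peaks lay beside a peak of the other stage rather than in a region free of them. Within 500 bp of a peak of the other stage were 708 E15.5-only peaks (43.3%) and 5103 E18.5-only peaks (22.2%). The strongest stage-only distal peak pair of this kind lay in the Tmem267 gene on chromosome 13. Here, the strongest E18.5-only distal peak (119601329 to 119601665, 5.91) stood beside a shared locus (119601829 to 119602214) that went from 7.55 at E15.5 to 4.05 at E18.5 and was 97.7% repeat sequence. The overlap rule therefore assigned to E18.5 alone a peak less than 500 bp from one that was called at both stages.

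The shared peaks lay at promoters more often than the stage-only peaks, which were mostly outside them. A promoter was taken as the 2000 bp upstream of any annotated transcription start site (TSS), which covered 6.41% of the autosomal sequence. At E15.5, promoters held 50.6% (50.1% to 51.2%) of the shared peaks and 20.7% (18.8% to 22.7%) of the E15.5-only peaks. At E18.5, they held 51.8% (51.2% to 52.3%) of the shared peaks and 20.5% (19.9% to 20.99%) of the E18.5-only peaks. The intervals of the stage-only classes overlap, and neither reaches that of the shared peaks. With both lists kept at −log10 p of at least 15 and the classes formed anew, which adds peaks whose counterpart lay below that value to the stage-only classes, promoters held 37.5% (32.5% to 42.7%) of the E15.5-only and 46.3% (44.8% to 47.8%) of the E18.5-only peaks, whose intervals do not overlap.

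Away from promoters, introns took the largest share of the stage-only peaks. They held 42.6% of the E15.5-only and 44.2% of the E18.5-only peaks, against 25.4% and 24.7% of the shared peaks and 40.2% of the autosomal sequence. Intergenic sequence held 28.7% and 27.0% of the stage-only peaks, less than its 49.1% of the genome. Peaks more than 100 kb from any TSS were rare in every class, at 1.65% and 1.73% of the shared peaks, 2.57% (1.91% to 3.45%) of E15.5 only, and 2.94% (2.73% to 3.17%) of E18.5 only. Coding exons held 2.997% and 3.44% of the stage-only peaks, against 2.66% and 2.26% of the shared peaks.

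**Figure D2:**
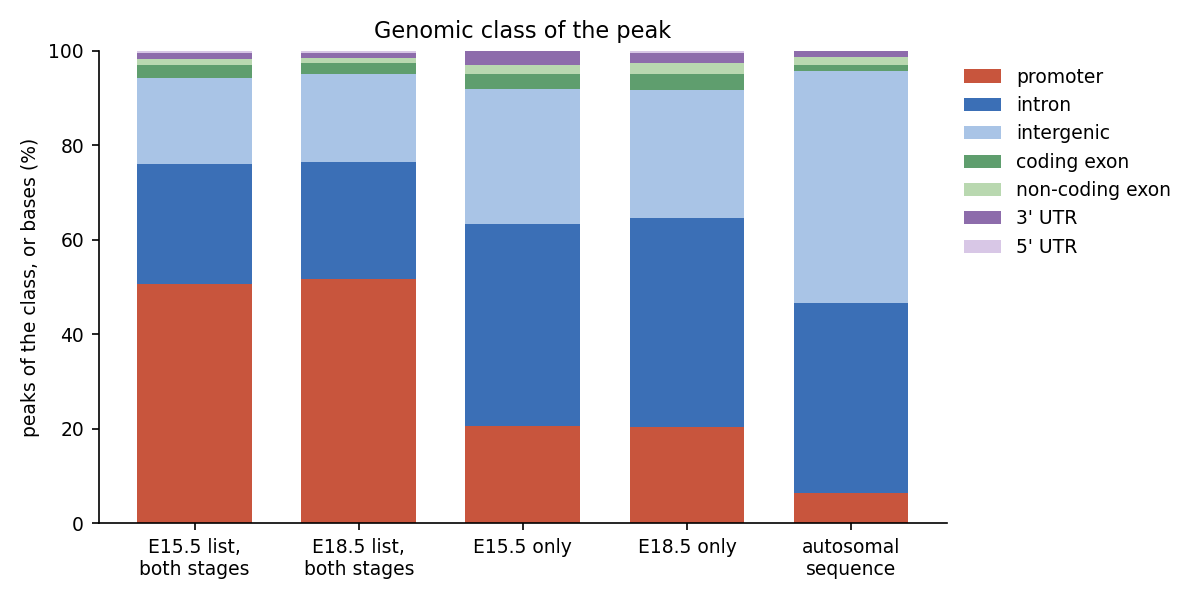
Percent of peaks by genomic class in each list, for peaks of both stages and stage-only peaks, beside the percent of autosomal bases in each class. Promoters hold 50.6% and 51.8% of the shared peaks and 20.7% and 20.5% of the stage-only peaks, against 6.41% of the bases.

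Since promoter peaks were stronger, the classes were also compared among peaks of like rank. Between percentiles 0 and 10 of the E15.5 list, where both classes had a median fold enrichment of 3.06, promoters held 25.8% (24.1% to 27.5%) of the shared and 21.1% (18.2% to 24.5%) of the E15.5-only peaks. Between percentiles 40 and 60 of the E18.5 list, they held 29.0% (27.7% to 30.3%) of the shared and 20.8% (19.7% to 22.1%) of the E18.5-only peaks, at medians of 3.61 and 3.50. Between percentiles 40 and 60 of the E15.5 list, the shares were 41.6% (40.4% to 42.8%) and 23.2% (14.8% to 34.4%), the latter of 69 peaks, at medians of 4.31 and 4.10. Between percentiles 30 and 40 of the E18.5 list, they were 24.1% (22.2% to 26.1%) and 21.3% (20.1% to 22.5%), with overlapping intervals. The gap among peaks of like rank was thus smaller than over the whole lists in these bands, and its size differed between them. The bands did not match width, and the shared peaks were wider (499 against 341 bp between percentiles 40 and 60 of the E18.5 list). The sequence of the classes was compared as well. In 300 bp around the summit, the median ratio of observed to expected CpG was 0.561 and 0.563 in shared peaks and 0.278 and 0.264 in stage-only peaks, and the median G+C content was 58.0% and 58.3% against 51.7% and 51.3%. At like rank, the CpG gap was smaller, at 0.325 against 0.260 between percentiles 0 and 10 of the E15.5 list and 0.350 against 0.289 between percentiles 40 and 60 of the E18.5 list.

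The stage-only peaks overlapped the peaks of the other factors of the series less often than the shared peaks did. ARID1B is a subunit of the BAF chromatin remodelling complex and FOXP1 is a forkhead factor of cortical neurons. Of the distal peaks, 89.0% (88.5% to 89.5%) of the shared E15.5 peaks overlapped an ARID1B peak of E15.5, against 61.0% (58.3% to 63.6%) of the E15.5-only peaks. For the E18.5 list and the same ARID1B list, the shares were 89.7% (89.2% to 90.2%) of the shared and 54.7% (54.0% to 55.5%) of the E18.5-only peaks. At promoters, the gap was wider, with 93.4% and 93.9% of the shared peaks and 44.7% and 38.8% of the stage-only peaks.

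The lists of the other factors differ in length, so the order of overlap between lists does not speak to a preference for a stage. Of the distal E18.5-only peaks, 49.2% (48.5% to 49.9%) overlapped an ARID1B peak of E18.5, fewer than the 54.7% that overlapped one of E15.5, and the same order was seen in the distal shared peaks of that list (85.9% and 89.7%) and in the distal E15.5-only peaks (54.3% and 61.0%). For FOXP1, 10.1% of the distal E18.5-only peaks overlapped the E18.5 list and 58.4% the E15.5 list. The FOXP1 list of E18.5 is the shortest of the series. Peaks of none of the 4 lists were met by 27.3% of the distal and 34.5% of the promoter E18.5-only peaks, against 3.13% and 1.42% of the shared peaks of that list. Among peaks of like rank, the gap was still present, with 66.8% of E18.5-only and 84.5% of shared peaks between percentiles 40 and 60 overlapping ARID1B of E15.5. Width was not matched in this comparison, with medians of 341 bp (E18.5 only) and 499 bp (shared).

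**Figure D3:**
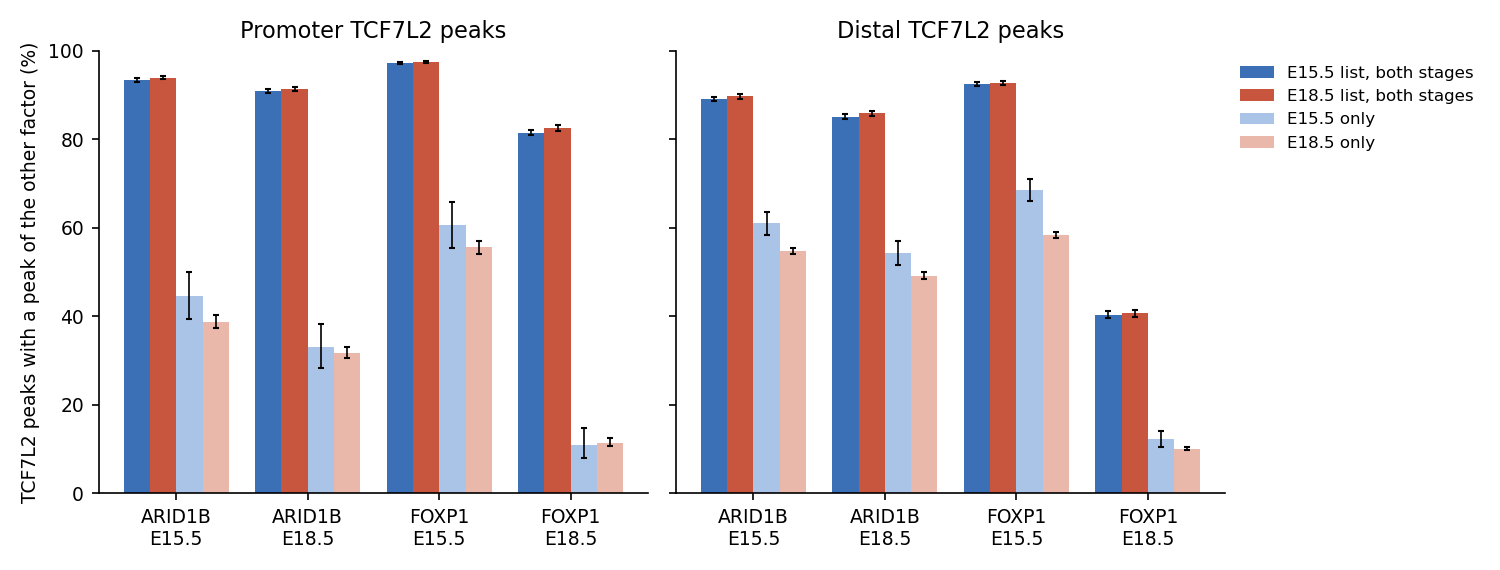
Percent of TCF7L2 peaks that overlap a peak of ARID1B or FOXP1 at each stage, for promoter (left) and distal (right) peaks, by list and class, with 95% Wilson intervals as bars. Shared peaks (dark) stand above stage-only peaks (light) in every pair, for example 89.0% against 61.0% for distal E15.5 peaks and ARID1B of E15.5.

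The TCF/LEF core was rare in all classes and was concentrated at the summit in the strongest distal peaks. Exact matches to 7 bases on either strand were counted, and 6.07% of all autosomal windows of 300 bp and 3.76% of RefSeq promoters (250 bp before to 50 bp after the start, GRCm38) held ATCAAAG. Of the distal shared peaks, 4.70% (4.37% to 5.05%) held it at E15.5 and 4.75% (4.42% to 5.11%) at E18.5. It was found in 3.86% (2.94% to 5.05%) of the distal E15.5-only and 4.52% (4.22% to 4.83%) of the distal E18.5-only peaks, so the intervals of the distal classes overlap. Promoter peaks held it less often when shared (2.03%, 1.82% to 2.26%, at E18.5) than when called at E18.5 only (3.62%, 3.12% to 4.19%), and these intervals do not overlap, whereas those of E15.5 do (2.11%, 1.89% to 2.34%, shared and 3.55%, 2.04% to 6.10%, E15.5 only). The 500 strongest distal peaks held it in 6.80% (4.91% to 9.35%) at each stage.

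The position of the core within the window was then compared between the centre and the flanks. In the 500 strongest distal peaks of E15.5, the central 100 bp held the core in 4.40% (2.92% to 6.57%) and a flank of the same length in 0.80% (0.406% to 1.57%). At E18.5, the values were 4.20% (2.76% to 6.33%) and 0.80%. Over all distal shared peaks, the centre and flank held it in 1.79% and 1.44% (E15.5) and in 1.83% and 1.48% (E18.5). In the stage-only peaks, the intervals of centre and flank overlapped. For E15.5 only, the values were 1.54% (1.00% to 2.37%) and 1.66% (1.23% to 2.23%). For E18.5 only, they were 1.49% (1.32% to 1.68%) and 1.52% (1.40% to 1.65%). The E15.5-only centre rests on 20 matches, and its interval includes the 1.79% of the shared peaks.

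Of the other motifs searched, an E-box was centred in every class. This E-box, CATCTG, bound by basic helix-loop-helix factors, lay in the central 100 bp of 15.48% (14.9% to 16.1%) of distal shared E15.5 peaks and in 8.11% of their flanks. The centre was also ahead in E15.5-only peaks (13.0% and 8.60%), in E18.5-only peaks (12.5% and 8.70%), and in the 500 strongest distal peaks of E15.5 (25.2% and 9.30%). TTGGCA, a partial site of nuclear factor I, was also ahead in the centre of shared and stage-only peaks, with 10.51% and 6.90% in distal shared E15.5 peaks and 9.32% and 6.67% in distal E18.5-only peaks, but in the 500 strongest distal peaks of E15.5 its intervals overlap (9.40%, 7.14% to 12.3%, and 7.30%, 5.85% to 9.08%). Over whole windows of 300 bp, CATCTG was in 21.8% of autosomal windows and 17.2% of RefSeq promoters, and TTGGCA in 14.4% and 14.1%. TTCAAAG and TGTTTAC, the other motifs counted by position, were not centred in every class. The variant TTCAAAG stood at 2.24% and 2.21% in distal shared E15.5 peaks and at 1.70% and 2.66% in E15.5-only peaks. The forkhead core TGTTTAC was slightly more frequent in the centre of distal shared E18.5 peaks (1.498%, 1.31% to 1.71%, against 1.18%, 1.06% to 1.31%) and its intervals overlapped in E15.5-only peaks (1.08% and 1.93%) and in the 500 strongest peaks of E15.5 (1.40% and 1.30%). These matches describe letters in the windows, and binding of the factors named was not measured by them.

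In the shared loci, the order of strength was largely kept from E15.5 to E18.5. Over the 30944 shared E15.5 peaks, each paired with its strongest overlapping E18.5 peak, Spearman's rho of the −log10 p values was 0.806. Over the 28207 loci, rho of the fold enrichments was 0.896, with 0.930 at promoters and 0.738 in distal loci. The points share their libraries and their G+C content, and no p-value was computed. The median log2 ratio of E18.5 to E15.5 fold enrichment was 0.06, and the loci were compared with this median. After this centring, 57 loci (0.202%) were at least 1.5-fold higher and 109 (0.386%) at least 1.5-fold lower at E18.5, and the summits of the 2 stages lay a median of 65 bp apart.

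The strongest locus of both lists lay at the promoter of Rnf44, a RING-type ubiquitin ligase gene (chromosome 13, 54692949 to 54695056), at 39.7 and 42.0. Its summits held 379 and 383 reads. With reads extended to 200 bp, 400 is the most that a summit can hold where 1 read per position and strand is kept, so that values near this ceiling say little about a difference between the stages. Among the next was a pair of loci on chromosome 17 (39842857 to 39847268 and 39847349 to 39848969) in ribosomal RNA sequence, at 37.1 and 39.2 and at 34.6 and 37.2. Repeated sequence of this kind can collect reads from other copies, so these values are uncertain.

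Axin2, a scaffold of the destruction complex that Wnt signalling itself induces, held the strongest promoter peak of the pathway. Its promoter locus (chromosome 11, 108919760 to 108922891) went from 32.2 to 37.5, a ratio of 1.17 (exact binomial 95% interval on summit reads, 0.998 to 1.37). The distal locus shown above, in intergenic sequence 68.2 kb from the nearest Axin2 TSS, went from 30.7 to 26.1, a ratio of 0.848 (0.712 to 1.01). The ratios of the pair lay on opposite sides of 1, but both intervals include 1. The distal locus of Lef1, 4.39 kb upstream of its TSS, went from 24.4 to 23.3 (0.957, 0.792 to 1.16) and was the second of the distal peaks in each list. Other strong loci were the promoters of Sfr1 (29.6 and 28.2), Ptov1 (27.3 and 28.2), and the heat shock genes Hspa1a and Hspa1l, which share a locus (24.4 and 23.1).

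The loci with the largest changes were mostly weak peaks with wide intervals. They were picked from the 28207 shared loci for their ratios, and the intervals were not adjusted for this choice. Among the rises, an intronic locus of Wsb2 went from 3.27 to 5.69 (ratio 1.74, 1.11 to 2.90), and an intergenic locus 42.7 kb upstream of Snap25, which encodes a protein of the synaptic vesicle fusion machinery, went from 3.06 to 5.25 (1.72, 1.08 to 2.92). At the Hox cluster on chromosome 6, the promoter locus of Hoxa10 went from 2.95 to 5.04 and a locus 7.65 kb downstream of the Evx1 TSS from 3.89 to 6.57. Thus the largest rises started from 27 to 36 reads at E15.5 in these 4 loci. A rise from a higher rank was that of the promoter locus of Polrmt, the mitochondrial RNA polymerase gene, from 6.08 to 9.96 (1.64, 1.18 to 2.35).

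Among the falls were 2 loci of higher rank. An intergenic locus 24.7 kb from the Ly6c2 TSS on chromosome 15 (75086110 to 75087192) went from 19.8 to 11.1, with 188 reads at E15.5 and 100 at E18.5 (ratio 0.560, 0.433 to 0.715). An intronic locus of Dock2, a gene for a guanine nucleotide exchange factor of blood cells, went from 11.6 to 6.79 (0.584, 0.418 to 0.802). Both intervals exclude 1 for counting error, but the loci were picked for their large falls, and the intervals were not adjusted for this choice. Lists of single replicates were not analysed here, and the spread between animals was not tested. A distal locus 6.68 kb downstream of the Zfp703 TSS (4.94 to 2.52) had the largest fall by ratio (0.510, 0.287 to 0.851). It went from the 62.2nd percentile of the E15.5 list to the weak end of the E18.5 list, with 46 and 22 reads.

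At the level of genes, most promoters kept a peak from E15.5 to E18.5. Of 20807 autosomal protein-coding genes, 12237 (58.8%) had a promoter peak at both stages, 66 (0.317%) at E15.5 only, 862 (4.14%) at E18.5 only, and 7642 at neither. With the lists at equal length, 211 genes had one at E15.5 only and 462 at E18.5 only, so the single-stage counts and the shares used as background below depend on the lengths of the lists. In the genes with peaks at both stages, the strongest promoter peak had a median fold enrichment of 6.50 in the E15.5 list and 6.90 in the E18.5 list, and rho between the stages was 0.911. The genes with a peak at 1 stage had weak ones, with medians of 3.27 (E15.5 only) and 3.28 (E18.5 only). After centring on the median log2 ratio of 0.08, 32 genes (0.262%) were at least 1.5-fold higher and 27 (0.221%) at least 1.5-fold lower at E18.5.

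**Figure D4:**
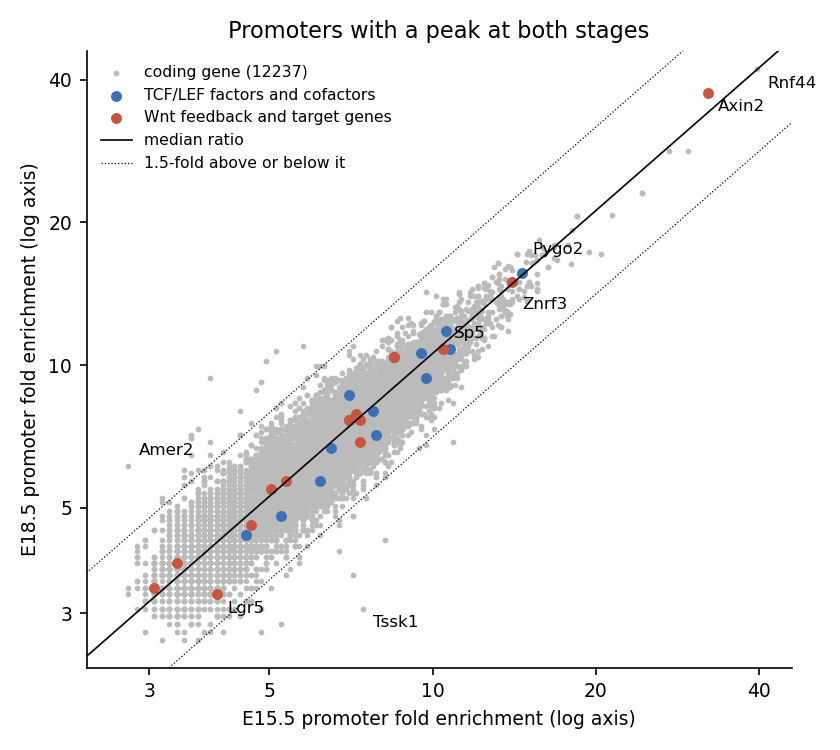
Fold enrichment of the strongest promoter peak at E15.5 (x axis, log) and E18.5 (y axis, log) for the 12237 coding genes with a promoter peak at both stages (grey), with TCF/LEF factors and cofactors in blue and Wnt feedback and target genes in red. The solid line is the median ratio and the dotted lines are 1.5-fold above and below it, beyond which lie 32 and 27 genes and no gene of the coloured lists.

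Some of these genes were assigned to a single stage because of where a peak ended. In 24 (36.4%) of the 66 genes of E15.5 only and 135 (15.7%) of the 862 of E18.5 only, the promoter peak overlapped a peak of the other stage that lay just outside the promoter. All of the genes with the highest values were of this kind, namely Wasf3 (6.398) and Ddx28 (5.98) at E15.5 and Znrf4 (10.9), Sspo (9.09), Lipe (8.98), Oaz3 (8.87), and Iqcn (8.65) at E18.5. In the other 42 and 727 genes, the highest values were 4.41 and 5.91. Of these, the E18.5-only genes were led by Cacng4 (5.91), which encodes a regulatory subunit of AMPA receptors, and included Dand5 (5.04), a secreted antagonist of Nodal, and Daw1 (5.04), an assembly factor of ciliary dynein. The E15.5-only genes were led by Catspere2 (4.41) and Panx2 (4.00) and included Fgf8 (3.47), the ligand that patterns the front of the cortex. These 6 genes were picked after their values were seen. Fgf8 also had 4 distal peaks at each stage, the strongest at 3.68 (E15.5) and 5.69 (E18.5).

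The largest changes in rank among genes with peaks at both stages were in part comparisons of different peaks. The strongest promoter peaks of the 2 stages overlapped in 11832 (96.7%) of the 12237 genes, but in 22 of the 32 higher and 20 of the 27 lower genes. Amer2, a membrane protein gene related to the APC-binding inhibitor of Wnt signalling, had the largest rise in percentile, with a fold enrichment that went from 2.74 to 6.13 (ratio 2.23, 1.41 to 3.86). Its strongest peak at E15.5, however, lay 0.759 kb downstream of a TSS, outside the promoter, at 7.44, and the E18.5 peak spanned both, so the locus as a whole did not rise. Ube2e2, a ubiquitin-conjugating enzyme gene, went from 3.16 to 5.25 (1.66, 1.05 to 2.80) at a single locus. Of the genes with the largest falls, Tssk1 (7.44 to 3.07), Syt9 (4.83 to 2.74), Nkx2-5 (4.10 to 2.74), and Sh3glb2 (7.13 to 3.61) had strongest peaks that did not overlap between the stages, whereas Gm10300 went from 5.25 to 2.85 at a single locus (0.542, 0.317 to 0.883).

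The Wnt pathway genes were then taken by role. Of 19 Wnt ligand genes, 6 had a promoter peak at both stages, 7 at E18.5 only, none at E15.5 only, and 6 at neither, against 58.8%, 4.14%, and 0.317% of all coding genes. The E18.5-only ligand promoters were weak, from 2.52 in Wnt16 to 3.39 in Wnt2b, with Wnt10a and Wnt9a at 3.07, Wnt2 at 3.28, and Wnt3 at 2.63. The exception was Wnt5b at 4.60, whose peak overlapped an E15.5 peak outside the promoter. The strongest ligand promoters were those of Wnt7a (5.88 and 6.24) and Wnt7b (5.04 and 5.47), the ligands that act on brain vessels, although the values of Wnt7b are of peaks that do not overlap. Wnt7b also had 14 (E15.5) and 20 (E18.5) distal peaks, the strongest of which lay 43.6 kb upstream and shared its summit base between the stages (13.6 and 15.4).

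All 15 receptor genes had a promoter peak at both stages. The strongest were those of the Frizzled genes Fzd1 (9.01 and 9.41) and Fzd7 (8.69 and 9.41). Of 13 secreted inhibitors, 8 (61.5%) had one at both stages, near the 58.8% of all coding genes, led by Draxin (8.49 and 8.43) and Sfrp1 (6.71 and 6.90), and Dkk2 (3.17), Sost (3.28), and Sfrp5 (3.07) had one at E18.5 only (23.1%, against 4.14% of all coding genes). That of Sfrp5 overlapped an E15.5 peak beyond the promoter. All 10 genes of β-catenin and its destruction complex had one at both stages, with Ctnnb1, which encodes β-catenin, at 13.8 and 14.9 and Gsk3b at 9.95 and 11.8. None of these genes passed 1.5-fold after centring, as 0.262% (higher) and 0.221% (lower) of all genes did, shares at which lists of this size would hold few or none.

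The factors at the end of the pathway and their cofactors all had promoter peaks at both stages (14 of 14 genes, against 58.8% of all coding genes). The strongest was Pygo2, a reader that ties β-catenin to chromatin (14.6 and 15.7), and the weakest Tle2 (4.52 and 4.38). The other Groucho genes lay between, with Tle3 at 10.6 and 11.8, Tle4 at 9.74 and 9.41, and Tle1 at 9.53 and 10.6. Of the factors themselves, Tcf7 was at 8.49 and 10.4, Lef1 at 7.02 and 7.66, Tcf7l2 at 6.50 and 6.68, and Tcf7l1 at 6.19 and 5.69. The promoter of the gene of the immunoprecipitated factor thus lay at the 80.3rd percentile of the E15.5 list and the 86.9th of the E18.5 list, close to the medians of all genes with promoter peaks at both stages (80.3 and 88.0).

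Distal peaks near these genes grew in number about as they did over all coding genes. The 14 genes had 75 distal peaks at E15.5, of which 6 were E15.5 only, and 142 at E18.5, of which 79 (55.6%) were E18.5 only. All coding genes together had 16580 and 32557 distal peaks, and 18268 (56.1%) of the latter were E18.5 only. Tle3 had the most, with 25 and 43. Tcf7l2 had 8 and 18, the strongest in an intron of the gene, at 8.69 (E15.5) and 8.21 (E18.5), and its E18.5-only distal peaks included one with the core motif 163 kb upstream (4.27). A second distal locus of Lef1, 23.4 kb downstream of its TSS, held the core at both stages and went from 6.61 to 9.63. The Tle2 locus printed above, 3.61 kb upstream, likewise shared its summit base between the stages (10.6 and 12.2).

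Of 16 feedback and target genes, 14 (87.5%) had a promoter peak at both stages, against the same 58.8%. Axin2 stood far above the rest. It was followed by Znrf3, a ubiquitin ligase that removes Frizzled receptors (14.02 and 14.997), Sp5, a repressor induced by Wnt (10.47 and 10.8), and Tcf7. Myc (7.34 and 7.66), Ccnd1, which encodes cyclin D1 (7.34 and 6.90, of peaks that do not overlap), and Nkd1, an inhibitor of Dishevelled (7.23 and 7.88), lay in the middle. The stem cell receptor genes Lgr5 (4.00 and 3.28) and Lgr6 (3.06 and 3.39) and the ligase gene Rnf43 (3.37 and 3.83) were the weakest. Cd44 had a peak at E18.5 only (2.74), and Dkk1 had none at its promoter and a single distal peak at E18.5 (3.07). Nkd1 had 8 distal peaks at E15.5 and 20 at E18.5, 14 of them E18.5 only, and the list as a whole had 42 E18.5-only peaks among 73 (57.5%, against 56.1% over all coding genes).

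Cell type genes were compared in the same way, with lists taken from textbook markers. The promoters of cortical lineage genes had peaks at both stages almost without exception, namely 12 of 12 genes of intermediate progenitors and neurogenesis, 12 of 12 of deep-layer neurons, 13 of 13 of upper-layer neurons, and 18 of 19 of radial glia, where Tnc had a peak at E18.5 only (2.96). The strongest of each list by the mean percentile of the 2 stages were Hes6 (15.6 and 15.54), Foxp2 (9.11 and 11.1), Pou3f2 (10.8 and 11.6), and Hes5 (9.84 and 9.85, of peaks that do not overlap). Of the other cell types, 8 of 21 endothelial (38.1%), 4 of 16 microglial (25%), and 3 of 9 pericyte and meningeal genes (33.3%) had a promoter peak at both stages, against 58.8% of all coding genes, and the median E15.5 fold enrichment of those endothelial promoters was 3.94, against 6.50 over all coding genes. Endothelial genes with a peak at E18.5 only were Fli1 (3.17) and Ocln (3.39). All 20 synaptic genes had a promoter peak at both stages, with Homer1 (8.90 and 8.98) and Slc17a7 (8.49 and 8.65) the strongest.

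Glial and interneuron genes mostly had a peak at both stages or at neither, and some had one at a single stage, which 4.14% (E18.5 only) and 0.317% (E15.5 only) of all coding genes had. Of 16 genes of astrocytes and gliogenesis, 12 (75%) had a promoter peak at both stages, 1 at E15.5 only, and 3 at neither. Over all coding genes, 58.8% had one at both stages. Zbtb20 (9.63 and 10.2) and Nfix (9.01 and 12.6) were the strongest. The Nfix values are of different loci, since its E18.5 peak overlapped an E15.5 peak of 13.6 that was classed as intronic, so that locus did not rise. The 16 genes had 101 distal peaks in the E15.5 list and 217 in the E18.5 list, of which 129 (59.4%) were E18.5 only, against 56.1% over all coding genes. Of 15 oligodendrocyte lineage genes, 7 (46.7%) had a promoter peak at both stages and 7 at neither. Myrf, the regulator of myelin genes, had one at E18.5 only (3.07). Of 20 interneuron genes, 15 (75%) had one at both stages, Npas1 at E15.5 only (3.16), and Lhx6 (3.28), Nkx2-1 (3.17), and Slc32a1 (6.46) at E18.5 only. The Slc32a1 peak overlapped an E15.5 peak outside the promoter.

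Other gene families were set beside the shares of all coding genes, 58.8% at both stages, 4.14% at E18.5 only, and 0.317% at E15.5 only. Of 1087 olfactory receptor genes, 1083 had no promoter peak at either stage, 1 had one at both, and 3 at E18.5 only. Of 79 ribosomal protein genes, 76 had one at both stages, led by Rps12 (11.6 and 11.4) and Rpl27 (11.4 and 11.1). Of 39 Hox genes, which pattern the body behind the forebrain, 21 (53.8%) had one at both stages, 1 (Hoxa6, 3.27) at E15.5 only, and 8 (20.5%) at E18.5 only, from 2.74 in Hoxb8 to 5.04 in Hoxa10, whose peak overlapped an E15.5 peak outside the promoter. The immediate early genes had one at both stages in 12 of 13, and 7 of 8 thalamic and habenular genes did, with Olig3 at E18.5 only (3.61). No gene of these lists passed 1.5-fold after centring either, beside the same 0.262% and 0.221% of all genes.

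**Figure D5:**
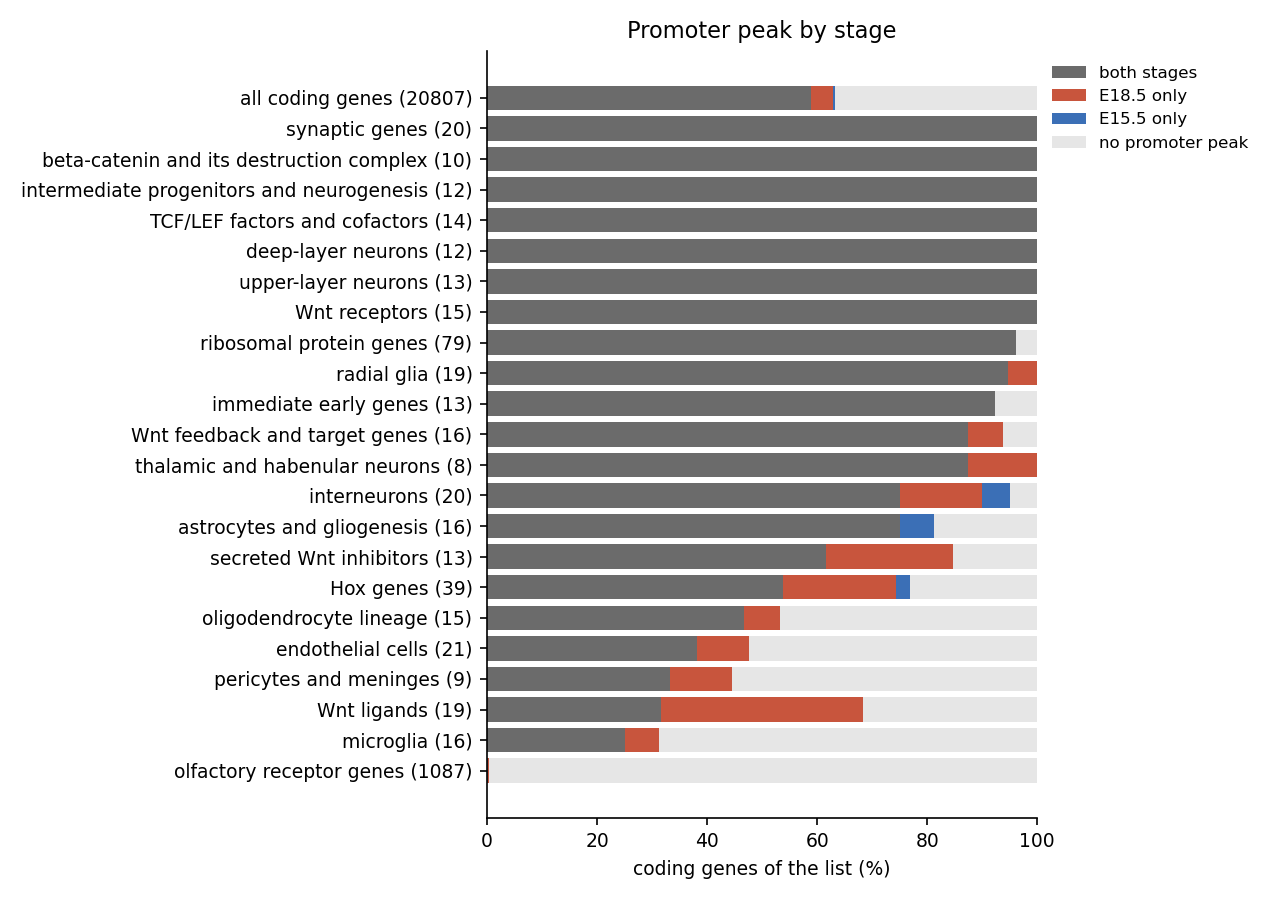
Percent of the coding genes of each list with a promoter peak at both stages (grey), at E18.5 only (red), at E15.5 only (blue), or at neither (light grey), with the number of genes of the list in brackets. Wnt ligands hold the largest red part (7 of 19), against 862 of 20807 for all coding genes.

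Outside promoters, the stage-only peaks of E18.5 were spread over many genes, with many near a few. At least 1 distal E18.5-only peak had its nearest coding TSS at 6391 genes, against 1078 genes for E15.5-only peaks, and 294 genes had 10 or more. The genes with the most, picked after their values were seen, were Gse1 (81), Dnah8 (64), Auts2 (53), Tcf4 (47), Nfib (45), Ttc28 (45), Tenm4 (43), and Vrk1 (38). Several of these are long genes or have long intergenic sequence around them, which gives room for more peaks, and the counts were not divided by length. Most of these genes also had many shared distal peaks, for example Gse1 with 150 distal peaks in all at E18.5 and Auts2 with 94, and over all coding genes 56.1% of the distal E18.5 peaks were E18.5 only. Gse1 and Auts2 encode chromatin-associated proteins, Tcf4 the basic helix-loop-helix factor, and Nfib a nuclear factor I protein of gliogenesis. All 8 genes also had promoter peaks at both stages, for example Tcf4 at 9.95 and 12.04 and Nfib at 9.01 and 10.1. Of all coding genes, 58.8% had them, but these 8 were picked for having many peaks, so the shares are not comparable.

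The strongest distal peaks of E15.5 only lay in an intron of Sos2, which activates Ras (6.08, chromosome 12, 69653996 to 69654294), and in a coding exon of the estrogen receptor gene Esr1 (5.98, chromosome 10, 4939118 to 4939458). They were followed by peaks at Zfp36l1 in a 3' untranslated region (5.15), in an intron of Rnf220 (4.94), and 17.7 kb upstream of D430019H16Rik (4.73). Those of E18.5 only, after the Tmem267 peak, were an intergenic peak nearest to Hrh4 (5.69, 384 kb away), intronic peaks of Shc2 (5.58) and Slc9a9 (5.36), and a peak in a coding exon of Crtc3 (5.25), 0.165 kb downstream of its TSS. The leading distal peaks of both stages, after Axin2 and Lef1, were those near Ly6c2 and Rpusd4 at E15.5 and those near Rpusd4 (19.9) and Ezh2 at E18.5. The Rpusd4 window was 100% repeat sequence at E18.5, so its value is uncertain. The stage-only distal peaks at the top of their classes thus were far weaker than the leading shared ones.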

How the data were processed

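TCF7L2 ChIP-seq of wild-type mouse cortex was measured at E15.5 and E18.5, with 2 ChIP and 2 input libraries per stage. The authors aligned reads to GRCm38 with BWA 0.7.15, kept mapping qualities of at least 30, and called narrow peaks with MACS2 2.2.7 on merged replicates against input, at a q-value threshold of 0.01, with 200 bp extension and no local background. No source used here states how duplicate reads were treated. For each peak, the authors deposited a fold enrichment (a ratio of summit reads to background, each plus 1), −log10 of the p-value and of the q-value, and a score. The deposited score and q-values were not used here.

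From these lists, peaks were matched by overlap of at least 1 base and ranked within each list by −log10 p. The background and summit reads were recovered from the steps of the fold enrichments, which gave the deposited −log10 p within 0.01 for over 99.9% of peaks. GENCODE release M21 served as annotation, whereas the methods name a later release. A promoter was the 2000 bp upstream of any TSS, and other peaks were distal and assigned to the nearest coding TSS. A locus or gene was called higher or lower at 1.5-fold from the median ratio. Shares carry 95% Wilson intervals, and ratios exact binomial intervals on summit reads, which cover counting error only. The stages were not tested against each other, since 1 list of merged replicates was analysed for each and lists of single replicates were not analysed here.

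Genes were named where they had the highest values at 1 stage only, the highest mean rank, or the largest change in rank (5 each), where they belonged to the TCF/LEF or Wnt target lists, and where they led another list or had a peak at 1 stage only. The 5 strongest distal peaks of each class were named likewise. Members and lists were chosen with earlier results of these data known. The alternatives were stricter thresholds on −log10 p or fold enrichment, lists of equal length, other overlap rules, and other promoter sets. Python 3.11.15, NumPy 2.4.6, SciPy 1.17.1, and pandas 2.3.3 were used, and the overlap and background steps were tested on simulated data. Single results for a few genes are not reported here.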

Additional observations from a re-analysis of the deposited data

Results flagged for a closer look

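Peaks outside chromosomes 1 to 19 entered no comparison of the report. No peak list of control samples was analysed here, so they were not compared with a background and are given as values. The E15.5 list held 398 peaks on chromosome X, 12 on Y, 3 on the mitochondrial genome, and 50 on unplaced or unlocalized sequences. The E18.5 list held 565, 9, 4, and 46 in the same order. On chromosome X, the E18.5 list thus had more peaks, as on the autosomes, with median fold enrichments of 4.00 (E15.5) and 3.83 (E18.5). The few mitochondrial peaks had medians of 26.9 and 26.5, and the unplaced sequences 5.35 and 4.65.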

How the results depend on the processing

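With both lists kept at −log10 p of at least 15, 12231 E15.5 peaks were shared, 347 were E15.5 only, and 4294 were E18.5 only (2.76% and 26.2% of their lists). The thresholds were applied before the classes were formed, so a peak whose counterpart fell below one counts as stage-only here. At −log10 p of at least 15, the E18.5 list also kept peaks of lower fold enrichment than the E15.5 list did. Promoters then held 78.0% of the shared, 37.5% of the E15.5-only, and 46.3% of the E18.5-only peaks, 1334 coding genes had a promoter peak at E18.5 only, and rho was 0.836. With the E18.5 list cut to the length of the E15.5 list, 4641 peaks were E15.5 only and 6665 were E18.5 only (14.2% and 20.5%), promoters held 53.8% of shared and 21.6% of E18.5-only peaks, 211 and 462 genes had a promoter peak at E15.5 only and E18.5 only, and rho was 0.795. Thus the E18.5-only count exceeded the E15.5-only count in every setting run, but by far less at equal length. At a fold enrichment of at least 4, 16897 E15.5 peaks were shared and 3701 peaks were E18.5 only (18.4% of that list, against 7.63% for E15.5 only). Counting peaks up to 500 bp apart as shared left 927 E15.5-only peaks, and requiring an overlap of 50% of the shorter peak gave a rho of 0.816. Promoters of coding transcripts alone held 45.8% of shared, 14.9% of E15.5-only, and 15.496% of E18.5-only peaks. Promoters extended to 500 bp downstream of the TSS, a setting chosen after seeing the data, held 55.1%, 24.8%, and 24.1%, and left 41 genes with a promoter peak at E15.5 only. Of 39 values computed, 26 moved (a share beyond its interval, a count by over 1.5 times, or a rank correlation by any amount) and 13 did not, and none reversed the order of shared and stage-only promoter shares.

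No paired analysis was possible because the 1 list per stage analysed here was called on merged replicates, and for the same reason leaving out a replicate was not run. Depth sets the lowest peak that each list can hold, 2.64 times the background for E15.5 and 2.41 for E18.5, so the absence of an E15.5 peak at a weak E18.5 site says that none was detectable at this depth.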
